A study of Mus musculus with 282 samples.

Results

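Liver RNA from night-fed wild-type mice injected with tunicamycin was compared with liver RNA from untreated night-fed wild-type mice. Libraries were taken by their labels as wild type, fed at night only, tunicamycin-injected or not injected, and sampled at zeitgeber time (ZT, hours after lights on) 10 or 22, the times that both arms share. This gave 14 of the 282 libraries of a series on mTOR signaling and daily gene expression, with 4 tunicamycin and 3 untreated libraries at each time. All mice were C57BL/6J males housed singly, and RNA came from the lateral lobe of the liver. The tunicamycin dose and the hour of injection stand in none of the sources used here, so ZT is the time of sampling and not the time since injection. Untreated mice received no injection, and the difference between the arms therefore includes the injection itself.

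Tunicamycin blocks the first step of N-glycan synthesis, the transfer of a sugar phosphate to dolichol phosphate by the enzyme DPAGT1. Proteins entering the endoplasmic reticulum (ER) therefore fold poorly. Unfolded protein in the ER lumen activates the sensors IRE1, PERK and ATF6, which start the unfolded protein response. IRE1 splices the mRNA of the transcription factor XBP1, ATF6 is cleaved into an active transcription factor, and PERK phosphorylates eIF2alpha, which lowers protein synthesis while the mRNA of ATF4 is translated more. These factors raise ER chaperones, ER-associated degradation, amino acid supply and, under lasting stress, CHOP (gene symbol Ddit3). Hepatocytes carry much of the secretory load of the body, making albumin, apolipoproteins and clotting factors, and the liver is a known target of tunicamycin.

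Reads came from the 3′ ends of polyadenylated RNA. Levels are given as RPM (a gene's reads per 1000000 reads of its library, after TMM scaling of the libraries of a fit together) and differences as log2(RPM + 0.5), tunicamycin minus untreated, averaged over ZT 10 and ZT 22 unless a time is named. Errors after ± are standard errors of the fit (n = 8 tunicamycin and 6 untreated libraries). A gene was called when limma's adjusted p (Benjamini-Hochberg over 12303 genes) was under 0.05 and the difference at least 2-fold, with the same sign at both times. By this rule 1149 genes were higher with tunicamycin (9.34% of genes tested) and 519 were lower (4.22%), 221 and 42 of them by at least 4-fold. The counts of called genes in the lists below are to be read beside these shares. The median log2 difference of all genes was 0.00. The 8 tunicamycin libraries held 6823068 to 9351947 reads each and the 6 untreated libraries 4932589 to 6639958 reads each. The tunicamycin libraries stand in one deposited table and every library without tunicamycin in another, so treatment and table cannot be told apart. To see how far a result rests on the untreated mice, each gene was also set against vehicle-injected wild-type mice and against untreated Albumin-Cre mice, which carry only the Cre transgene under the Albumin promoter. The vehicle-injected mice stand in the table without tunicamycin, beside mice injected with the drug rapamycin. No vehicle arm stands in the tunicamycin table, so they are not a matched control of the tunicamycin injection. Of the genes called higher 670 were higher against all 3 control arms, and of those called lower 184 were lower against all 3. All 3 control arms stand in the table without tunicamycin, so a call against each of them does not separate treatment from table. The 3 comparisons also share the same 8 tunicamycin libraries. In bulk liver RNA, fewer cells of a type and less RNA per cell cannot be told apart.

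The target of the drug and its carrier were both called higher. Dpagt1 (chr9:44325857-44333895), the blocked enzyme, had 19.2, 22.8 and 21.6 RPM in the untreated livers at ZT 10 and 19.5, 17.8 and 16.9 at ZT 22, against 41.9, 37.7, 42.7 and 41.1 at ZT 10 and 41.3, 39.6, 39.9 and 43.1 at ZT 22 with tunicamycin. Every tunicamycin library lay above every untreated one, with a log2 difference of 1.05 ± 0.09 (limma adjusted p = 1.03e-08). This difference is close to the 2-fold limit, and it was 0.72 against vehicle-injected and 0.82 against Albumin-Cre liver, where the call was lost. At a pseudocount of 2 or with the deposited scaling it was lost as well. Mfsd2a, the lysophospholipid transporter through which tunicamycin enters cells, had 261, 399 and 263 RPM untreated and 437, 427, 409 and 375 with tunicamycin at ZT 10, and 76.1, 28.2 and 41.8 RPM untreated and 107, 181, 181 and 268 with tunicamycin at ZT 22. At ZT 10 the lowest treated library lay below the highest untreated one, and at ZT 22 the arms did not overlap. The log2 difference was 1.20 ± 0.20 (limma adjusted p = 4.62e-05), and it was 0.45 at ZT 10 and 1.95 at ZT 22.

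The mRNAs of the ER stress sensors were higher in 4 of 5, all 4 against each of the 3 control arms, with a list median of 1.62. Eif2ak3, which encodes PERK, had 1.34, 1.75 and 2.06 RPM untreated at ZT 10 and 5.13, 2.75 and 7.67 at ZT 22, against 19.9, 23.1, 16.1 and 24.4 at ZT 10 and 28.0, 22.6, 22.9 and 28.8 at ZT 22. It was the sensor with the highest difference, 2.78 ± 0.18 (limma adjusted p = 2.17e-10). Atf6 lay at 28.8, 26.3 and 33.8 RPM at ZT 10 and 35.3, 24.6 and 28.6 at ZT 22 untreated, and at 89.5, 108, 78.3 and 88.6 at ZT 10 and 121, 101, 90.4 and 118 at ZT 22 with tunicamycin, a log2 difference of 1.73 ± 0.11. Its relative Atf6b rose by 1.62 ± 0.12 and Ern1, which encodes IRE1, by 1.46 ± 0.13, with 9.96 to 31.4 RPM untreated and 38.6 to 82.4 RPM treated. No library of one arm overlapped the other in these 4 genes. Creb3l3, a liver relative of Atf6 cleaved under stress, differed by 0.72 ± 0.09 and did not reach 2-fold.

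Transcription factors and feedback genes of the response rose in 13 of 14 tested, with a list median of 3.94, the highest of the 41 lists, and 11 were higher against all 3 control arms. Ddit3 (chr10:127290793-127296291), which encodes the pro-apoptotic factor CHOP, had 4.01, 2.62 and 3.26 RPM untreated at ZT 10, 3.08, 4.03 and 5.75 untreated at ZT 22, 1195, 1292, 1320 and 955 with tunicamycin at ZT 10 and 1547, 1547, 1649 and 1493 at ZT 22. The mean was 363 times that of the untreated livers, and the log2 difference of 8.34 ± 0.12 (limma adjusted p = 4.88e-20) was 7.51 against vehicle-injected and 7.54 against Albumin-Cre liver. Atf3 (chr1:191170296-191183333), a stress-induced factor of the same family, had at most a few reads in each untreated library, 0 to 0.686 RPM, against 169.9, 186, 126 and 78.2 at ZT 10 and 365, 325, 355 and 412 at ZT 22. On the scale used, which understates changes of genes with so few reads, its log2 difference was 7.96 ± 0.19. Atf4 (chr15:80255184-80257545), the factor translated when eIF2alpha is phosphorylated, was already well expressed at 71.3, 84.2 and 68.6 RPM at ZT 10 and 115, 103 and 132 at ZT 22 and reached 413, 334, 403 and 353 at ZT 10 and 504, 412, 454 and 482 at ZT 22, a log2 difference of 2.15 ± 0.09.

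Trib3 (chr2:152337425-152344060), a pseudokinase induced by ATF4 and CHOP, had 13.2, 6.11 and 11.2 RPM untreated at ZT 10 but only 1.03, 2.02 and 1.15 at ZT 22, against 291, 285, 317 and 238 at ZT 10 and 445, 469, 448 and 384 at ZT 22 with tunicamycin. The difference was 6.33 ± 0.15, and the untreated livers were the ones that moved most between the times. Ppp1r15a, which encodes the phosphatase subunit GADD34 that reverses the phosphorylation of eIF2alpha, rose by 4.03 ± 0.14, with 2.75 to 5.95 RPM untreated and 48.4 to 118 RPM treated. Its constitutive relative Ppp1r15b did not pass the test (0.28 ± 0.12, limma adjusted p = 0.0578). Chac1, an enzyme that degrades glutathione, had 2.08, 4.22 and 3.26 RPM untreated at ZT 10 and 0.821, 1.65 and 0.575 at ZT 22, against 115, 108, 116 and 53.9 at ZT 10 and 102, 99.8, 100.3 and 119 at ZT 22, a log2 difference of 5.45 ± 0.19. Nupr1, a stress-induced chromatin protein, lay at 0.297 to 1.34 RPM untreated and 37.7 to 113 RPM treated (5.94 ± 0.18).

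The mTORC1 inhibitors induced by ATF4 were also among the genes that rose. Ddit4, which encodes REDD1, had 9.51, 9.02 and 6.86 RPM at ZT 10 and 17.6, 18.9 and 26.1 at ZT 22 untreated, against 106, 238, 196 and 223 at ZT 10 and 542, 665, 716 and 407 at ZT 22 with tunicamycin. Its level was higher at ZT 22 in both arms, and the log2 difference was 4.56 ± 0.17. Sesn2, a leucine sensor upstream of mTORC1, rose by 3.86 ± 0.18, with 0.366 to 1.64 RPM untreated and 16.9 to 25.4 RPM treated. The CCAAT-binding factors Cebpb (1.95 ± 0.30) and Cebpg (1.62 ± 0.12) rose less. Xbp1, counted without regard to splicing, had 47.8 to 93.8 RPM untreated and 133 to 218 with tunicamycin. Its difference of 1.14 ± 0.14 was 0.80 against vehicle-injected and 0.77 against Albumin-Cre liver, under the 2-fold limit in both, and it was also lost at 0.99 without untreated ZT 22 replicate 1. Atf5, a further target of the pathway, differed by 1.84 ± 0.19, and by 0.87 against vehicle-injected liver, where it was not called.

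**Figure D1:**
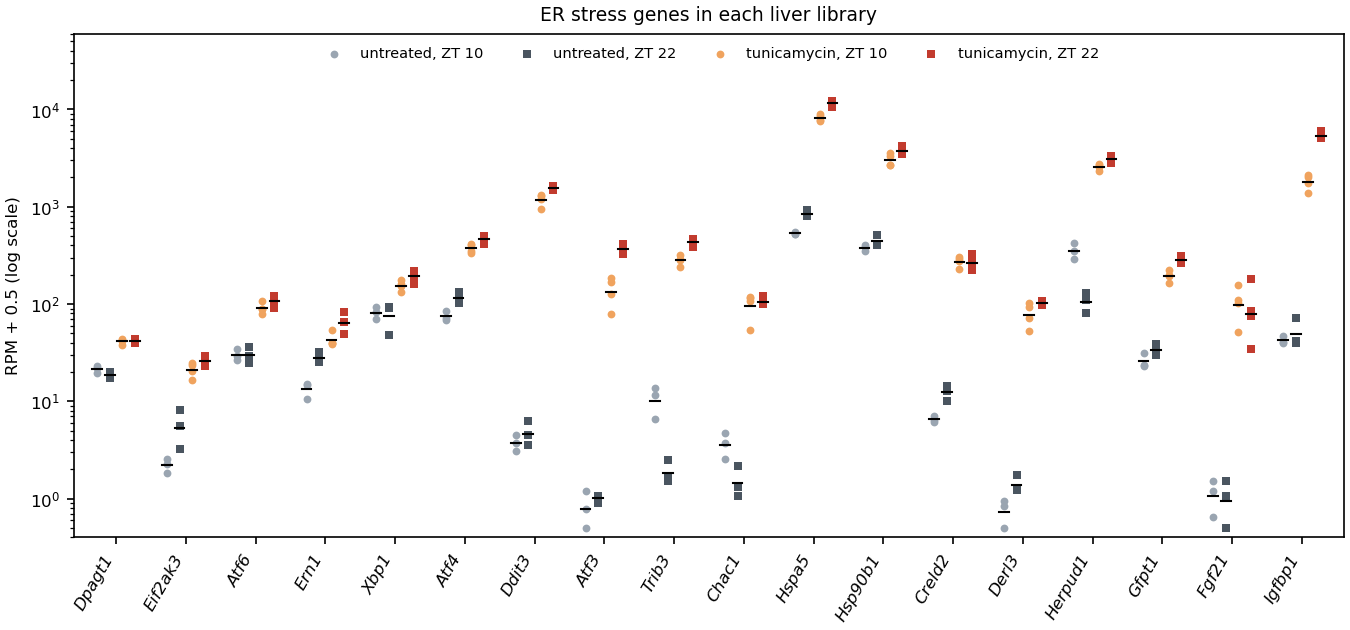
RPM + 0.5 on a log axis in each of the 14 libraries for 18 ER stress genes, with untreated livers in grey and tunicamycin livers in orange and red (circles ZT 10, squares ZT 22, bars the mean on the log scale). Tunicamycin libraries lie above all untreated libraries for each gene shown, with log2 differences from 1.05 for Dpagt1 to 8.34 for Ddit3.

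Promoter sequences are shown for Hspa5, Hsp90b1, Creld2, Derl3 and Herpud1, which rose by at least 4-fold and hold an ER stress response element (ERSE or ERSE-II), the kind of site that ATF6 and XBP1 are known to bind. They are a selection, since Syvn1, Alg12 and Calr meet the same conditions and are not shown. Each run holds the 250 bases before the annotated start, 5′ to 3′ on the gene's strand, from RefSeq on GRCm38.p6. Capitals mark matches, on either strand, of the element ERSE (CCAAT and CCACG with any 9 bases between), of ERSE-II (ATTGG and CCACG with any 1 base between) or of the C/EBP-ATF element (TGATG and AA with any 1 base between), the last bound by ATF4.
Hspa5 chr2:34771840-34772089 (plus strand): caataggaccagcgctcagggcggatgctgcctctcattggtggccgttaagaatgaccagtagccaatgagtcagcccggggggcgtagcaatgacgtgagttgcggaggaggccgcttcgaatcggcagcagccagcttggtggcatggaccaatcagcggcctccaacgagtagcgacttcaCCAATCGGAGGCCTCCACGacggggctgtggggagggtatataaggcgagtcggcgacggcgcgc
Hsp90b1 chr10:86705445-86705694 (minus strand): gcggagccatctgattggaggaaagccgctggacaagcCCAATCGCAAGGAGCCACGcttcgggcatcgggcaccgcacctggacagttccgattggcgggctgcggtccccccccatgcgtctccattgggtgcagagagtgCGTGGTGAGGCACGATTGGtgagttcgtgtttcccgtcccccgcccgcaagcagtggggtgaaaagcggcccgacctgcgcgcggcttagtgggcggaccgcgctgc
Creld2 chr15:88819396-88819645 (plus strand): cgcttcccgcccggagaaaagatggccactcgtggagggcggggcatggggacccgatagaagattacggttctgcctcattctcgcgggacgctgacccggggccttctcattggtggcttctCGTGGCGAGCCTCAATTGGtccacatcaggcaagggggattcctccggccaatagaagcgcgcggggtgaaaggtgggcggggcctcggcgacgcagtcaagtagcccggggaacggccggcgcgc
Derl3 chr10:75893148-75893397 (plus strand): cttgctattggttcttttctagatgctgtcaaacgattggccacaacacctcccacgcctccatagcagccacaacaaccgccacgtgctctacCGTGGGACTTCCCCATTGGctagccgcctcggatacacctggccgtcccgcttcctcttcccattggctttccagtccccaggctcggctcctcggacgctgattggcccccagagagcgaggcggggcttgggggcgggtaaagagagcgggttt
Herpud1 chr8:94386179-94386428 (plus strand): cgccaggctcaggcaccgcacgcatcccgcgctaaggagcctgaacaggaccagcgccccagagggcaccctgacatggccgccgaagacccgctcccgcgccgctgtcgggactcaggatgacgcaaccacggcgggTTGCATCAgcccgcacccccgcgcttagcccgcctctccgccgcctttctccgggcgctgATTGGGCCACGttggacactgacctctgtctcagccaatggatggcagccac
The match in Hspa5 lies 65 to 47 bases before the start. Hsp90b1 has matches at 212 to 194 bases and, on the opposite strand, at 107 to 89 bases. In Creld2 the match lies 126 to 108 bases and in Derl3 156 to 138 bases before the start, both on the opposite strand. The capitals in Herpud1 are the C/EBP-ATF element at 112 to 105 bases, on the opposite strand, and ERSE-II at 52 to 42 bases.

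Among the 8941 tested genes with a promoter window, 15 (0.168%) held ERSE, and it stood in 9 of the 812 called higher (1.11%), in 7 of the 155 that were higher by at least 4-fold (4.52%), in 0 of the 311 called lower and in 6 of the 7818 not called (0.0767%). Over all 27025 windows 0.13% held it, and windows on chromosome 18 or of incomplete length were left out of the scan. The genes called higher with a match were Hspa5, Hsp90b1, Creld2, Derl3, Dnajc3, Alg12 and Syvn1, and, named here for the match, the lectin chaperone Calr (2.11 ± 0.11) and the disulfide isomerase Pdia6 (1.70 ± 0.10). Canx, the membrane-bound relative of Calr, also held a match and differed by 0.36 ± 0.09, short of 2-fold. ERSE-II stood in 7 tested genes, 4 of them called higher. The C/EBP-ATF letters are short and stood in 2.52% of tested genes, 2.96% of those called higher, 5.81% of those higher by at least 4-fold and 2.25% of those called lower. A match shows only that these letters lie in the window.

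ER chaperones and foldases rose in 17 of 31, with none lower and a list median of 1.64. Of the 17, 16 were higher against all 3 control arms. Hspa5 (chr2:34772090-34776529), which encodes BiP, the main ER chaperone, had 527, 519 and 552 RPM untreated at ZT 10 and 807, 795 and 935 at ZT 22, against 8883, 7859, 8472 and 7551 at ZT 10 and 12200, 11490, 10560 and 12020 at ZT 22 with tunicamycin. The arms lay far apart at both times, and the difference was 3.86 ± 0.10 (limma adjusted p = 1.76e-16). Hsp90b1, the ER form of HSP90, had 407, 386 and 348 RPM at ZT 10 and 416, 406 and 516 at ZT 22 untreated, against 3291, 3527, 2700 and 2685 at ZT 10 and 4170, 3486, 3476 and 3886 at ZT 22 treated, a difference of 3.03 ± 0.10. Creld2, a small foldase, had 6.54, 5.67 and 6.01 RPM at ZT 10 and 9.64, 12.3 and 14 at ZT 22 untreated, against 287, 304, 274 and 226 at ZT 10 and 279, 223, 242 and 329 at ZT 22 treated, the highest difference of the list at 4.90 ± 0.11.

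Other members of the list rose as well. The secreted factor Manf rose by 3.84 ± 0.15, with 22.8 to 108 RPM untreated and 524 to 781 RPM treated, and the disulfide isomerase Pdia4 by 3.23 ± 0.12. The co-chaperones Dnajb9 (2.84 ± 0.11) and Dnajc3 (1.86 ± 0.08) and the nucleotide exchange factor Hyou1 (2.78 ± 0.09) were also higher. In all of these the 2 arms did not overlap. Fkbp2, a prolyl isomerase, differed by 1.64 ± 0.18 but by only 0.59 against vehicle-injected and 0.79 against Albumin-Cre liver, where it was not called.

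ER-associated degradation, which returns misfolded protein to the cytosol for the proteasome, rose in 13 of 22 genes with none lower (list median 1.04), 10 of them against all 3 control arms. Herpud1, a scaffold of the degradation complex, had 354, 422 and 293 RPM untreated at ZT 10, 80.0, 128 and 108 untreated at ZT 22, and 2783, 2351, 2667 and 2539 at ZT 10 and 3140, 3179, 2849 and 3352 at ZT 22 with tunicamycin, a difference of 3.89 ± 0.11 (limma adjusted p = 1.09e-15). Derl3, a channel component, was close to undetected untreated, at 0, 0.436 and 0.343 RPM at ZT 10 and 1.23, 0.733 and 0.767 RPM at ZT 22, and reached 70.6, 102, 93.6 and 52.4 at ZT 10 and 97.2, 106, 104.2 and 97.2 at ZT 22. Its log2 difference was 6.46 ± 0.17. Syvn1, the ubiquitin ligase HRD1, rose by 4.35 ± 0.15, with 11.9 to 45.3 RPM untreated and 411 to 574 RPM treated, and its partner Sel1l by 2.21 ± 0.08. The mannosidase Edem3 (1.23 ± 0.09) and the ubiquitin-conjugating enzymes Ube2j1 (1.16 ± 0.09) and Ube2g2 (1.42 ± 0.12) rose by smaller steps.

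The lists for translocation into the ER, N-glycosylation and ER to Golgi transport had smaller medians of 0.63, 0.56 and 0.63. In N-glycosylation and hexosamine synthesis 10 of 39 rose and none fell, 8 of them against all 3 control arms. Gfpt1, the rate-limiting enzyme of hexosamine synthesis, had 30.6, 23.1 and 22.8 RPM at ZT 10 and 29.6, 38.1 and 33.0 at ZT 22 untreated, against 197, 222, 196 and 163 at ZT 10 and 264, 267, 281 and 311 at ZT 22 with tunicamycin, a difference of 2.98 ± 0.10 (limma adjusted p = 1.06e-14). Uap1 in the same pathway rose by 1.23 ± 0.09. Of the enzymes that build the lipid-linked glycan, Alg2 rose by 1.80 ± 0.12, Alg12 by 2.31 ± 0.20 from a low level (0.594 to 3.45 RPM untreated) and Dhdds, which makes the dolichol carrier, rose by 1.31 ± 0.11. Uggt1, which senses misfolded glycoproteins, rose by 1.39 ± 0.09.

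In translocation and signal peptide cleavage 5 of 24 rose and 1 fell. Srprb, a subunit of the signal recognition particle receptor, rose by 1.53 ± 0.11, and it was the only one of the 5 that was also called against both other control arms. Sec61g, a subunit of the translocon, was lower in every tunicamycin library, with 30.6, 32.4 and 37.4 RPM at ZT 10 and 29.4, 37.8 and 37.6 at ZT 22 untreated, against 5.64, 4.31, 6.13 and 3.94 at ZT 10 and 4.23, 4.12, 3.39 and 3.60 at ZT 22 treated (-2.83 ± 0.13). Its 3′ end shares 53.1% of its sequence with other loci, so its reads could be split differently in the 2 tables. Of 33 genes of ER to Golgi transport 10 rose, 6 of them against all 3 control arms. The cargo receptors Tmed3 (1.80 ± 0.11) and Tmed9 (1.32 ± 0.10), the coat subunit Sec24d (1.20 ± 0.12) and the fusion protein Sec22b (1.20 ± 0.09) were among them. Arf4 (chr14:26638134-26656842), a small GTPase of the Golgi, had 0.297 to 1.23 RPM untreated and 118 to 154 treated (6.72 ± 0.14). It stayed at 0.135 to 1.95 RPM in all 72 libraries read from the table without tunicamycin and at 60.3 to 171 RPM in all 32 libraries read from the other, so its difference cannot be told apart from one between the tables.

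ATF4 targets of amino acid supply rose in 10 of 18 tested, with none lower and a median of 1.25, and 8 were higher against all 3 control arms. Slc38a2, the amino acid transporter SNAT2, had 103.6, 107 and 78.3 RPM at ZT 10 and 54.0, 52.4 and 53.9 at ZT 22 untreated, against 474, 551, 497 and 460.4 at ZT 10 and 517, 543, 375 and 393 at ZT 22 with tunicamycin (2.72 ± 0.10, limma adjusted p = 7.98e-14). Psat1, an enzyme of serine synthesis, was near the floor untreated (0 to 0.743 RPM) and reached 12.2 to 31.8 RPM. The mitochondrial folate enzyme Mthfd2 lay at 0.343 to 3.45 RPM and at 10.8 to 37.5 RPM. On the scale used, their differences were 4.81 ± 0.18 and 3.78 ± 0.18. The cationic amino acid transporter Slc7a1 differed by 4.41 ± 0.24, but like Arf4 it was under 2 RPM in all 72 libraries read from the table without tunicamycin and over 5 RPM in all 32 read from the other.

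The list also holds stress hormones. Fgf21 (chr7:45613890-45615490), a fasting and stress hormone of the liver, had 0.149, 1.02 and 0.686 RPM at ZT 10 and 1.03, 0 and 0.575 RPM at ZT 22 in the untreated livers, a few reads at most, and 102, 157, 108 and 51.4 RPM at ZT 10 and 84.4, 179, 33.9 and 75.8 at ZT 22 with tunicamycin. Treated livers spread widely, and none came near the untreated range (6.47 ± 0.33, limma adjusted p = 8.21e-12). Gdf15, a hormone that lowers appetite, had 2.53, 3.35 and 6.01 RPM at ZT 10 and 7.39, 4.40 and 11.7 at ZT 22 untreated, against 286, 304, 429.6 and 353 at ZT 10 and 276, 269, 215 and 217 at ZT 22 treated, a difference of 5.65 ± 0.18. Aminoacyl-tRNA synthetases rose in 8 of 20 (median 0.80), with Wars (1.86 ± 0.17), Eprs (1.52 ± 0.09), Nars (1.41 ± 0.10) and Rars (1.29 ± 0.09) called against all 3 control arms.

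Genes of ribosome biogenesis rose in 16 of 35, with none lower and a median of 0.97, and 10 were higher against all 3 control arms. Nop58, a core protein of nucleolar methylation complexes, had 19.6, 41.2 and 26.6 RPM at ZT 10 and 30.0, 23.3 and 22.4 at ZT 22 untreated, against 140, 89.2, 120.2 and 102 at ZT 10 and 170.5, 111, 159 and 179 at ZT 22 with tunicamycin (2.28 ± 0.15, limma adjusted p = 5.32e-10). Ubtf, the upstream binding factor of RNA polymerase I, rose by 2.02 ± 0.10, Ppan by 2.20 ± 0.15, Gnl3 by 1.84 ± 0.11 and Wdr43 by 1.76 ± 0.11. Of 49 cytosolic ribosomal proteins 1 was called, lower, at a list median of -0.23. Of the 49, 41 share at least 10% of their 3′ end with other loci. Rps12, a cytosolic ribosomal protein gene outside this list, was among the 20 lowest differences, its mean 4.69 times lower with tunicamycin. It had 95.9 to 184 RPM in the libraries read from the table without tunicamycin and 19.0 to 44.5 RPM in those from the other.

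Of 18 tested genes of apoptosis and p53 signaling 3 rose, each against all 3 control arms. Cdkn1a, the cell cycle inhibitor p21, had 1.93, 5.24 and 2.23 RPM untreated and 42.9, 48.1, 44.6 and 55.3 treated at ZT 10, and 23.8, 8.61 and 13.6 untreated and 339.6, 431, 564 and 392 treated at ZT 22, a difference of 4.35 ± 0.20 (limma adjusted p = 2.17e-12). Gadd45a, a growth arrest gene, rose by 4.07 ± 0.16, with 2.67 to 5.49 RPM untreated and 54.9 to 96.6 RPM treated, and Trp53inp1 by 2.86 ± 0.12. Mdm2, which p53 also induces, differed by 0.99 ± 0.09, just short of 2-fold. Of the regulators of apoptosis in the list, Bid (-0.65 ± 0.13) and Mcl1 (0.34 ± 0.09) were not called. In the proliferation list 1 of 10 was called, Ccne2 (2.66 ± 0.30), whose 3′ end is shared for 63.9%, and the median was -0.45.

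Other quality control systems moved little. None of 31 proteasome subunits was called in either direction, at a median of -0.19. By limma 14 had an adjusted p under 0.05 below zero and 8 above, none reaching 2-fold. Of all 12303 genes tested, 6560 had an adjusted p under 0.05 at any fold. Heat shock chaperones of the cytosol and mitochondria were higher in 1 of 23 and lower in 2 (median -0.08). The member that rose was Hspb8, a small heat shock protein of selective autophagy (1.35 ± 0.15), while the cytosolic Hsp90aa1 differed by -0.77 ± 0.10. In the autophagy list 3 of 22 rose, among them the cargo receptor Sqstm1, with 95.0 to 181 RPM untreated and 279.6 to 652 RPM treated (1.62 ± 0.11), and Atg13 (1.72 ± 0.12). NRF2 targets split, with 2 of 19 higher and 3 lower (median -0.28), beside 9.34% and 4.22% of all genes tested. Of the called targets only the heme oxygenase Hmox1, at 0.145 to 5.75 RPM untreated and 3.95 to 23.6 RPM treated (2.25 ± 0.30), was called against all 3 control arms.

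Reported substrates of IRE1-dependent mRNA decay were lower in 2 of 7 tested, with none higher and a median of -0.57. Bloc1s1, the best known of them, had 73.1, 73.5 and 75.2 RPM at ZT 10 and 48.4, 62.5 and 70.2 at ZT 22 untreated, against 25.8, 23.8, 40.2 and 32.2 at ZT 10 and 39.0, 32.9, 40.8 and 30.3 at ZT 22 treated, with no overlap. Its difference of -1.02 ± 0.12 (limma adjusted p = 1.31e-06) sits at the 2-fold limit. The call was lost with a pseudocount of 2 (-0.98) and, with values no nearer to zero than -0.96, without untreated ZT 22 replicate 3, tunicamycin ZT 10 replicate 1, tunicamycin ZT 10 replicate 2, tunicamycin ZT 22 replicate 2 or tunicamycin ZT 22 replicate 4, and 88.0% of its 3′ end is shared. Rtn4 differed by -1.09 ± 0.10, and by -0.83 against vehicle-injected and -0.71 against Albumin-Cre liver, where it was not called. Hgsnat (-0.57 ± 0.12) lay lower in every treated library without reaching 2-fold, and Col6a1 and Sparc had adjusted p above the threshold.

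**Figure D2:**
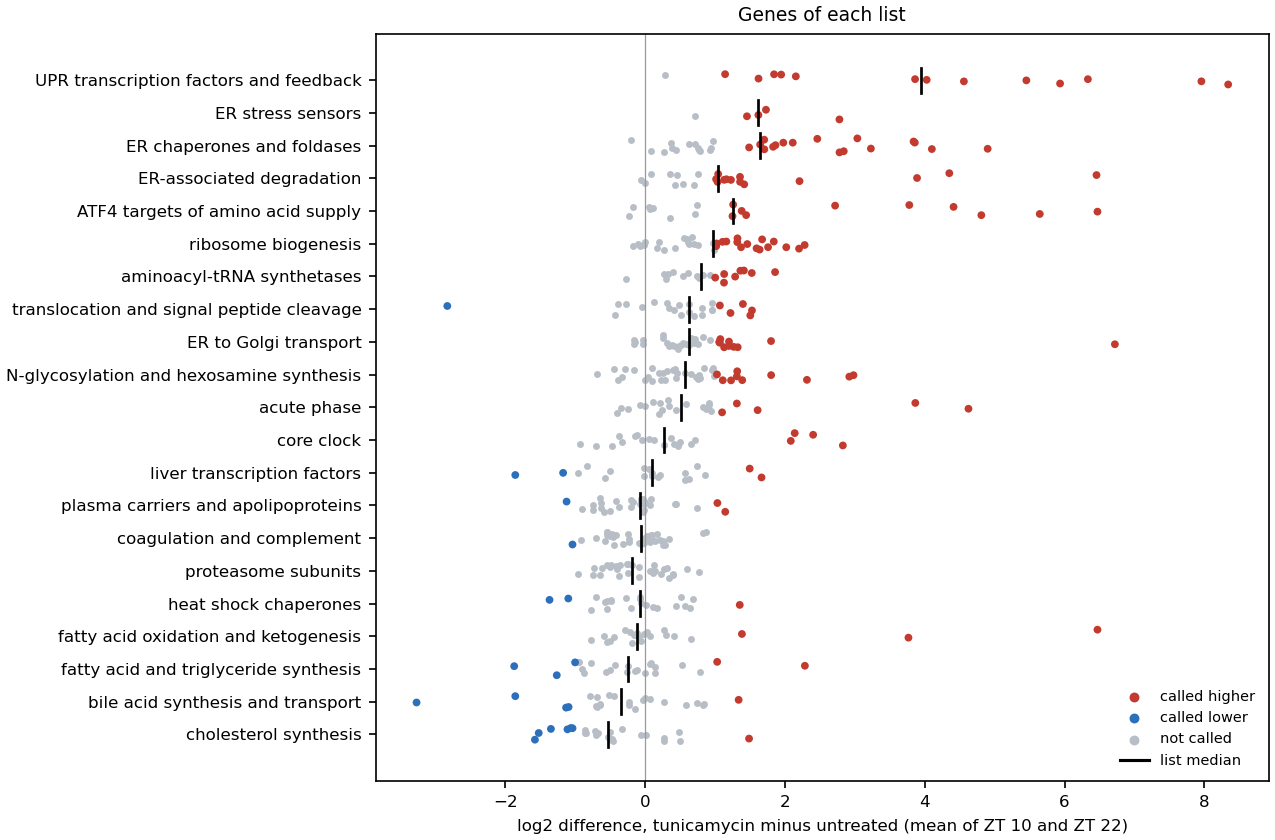
Log2 difference, tunicamycin minus untreated, mean of ZT 10 and ZT 22, for every tested gene of 21 lists, with called genes in red (higher) or blue (lower) and the list median as a bar. ER and ATF4 lists lie to the right, with medians up to 3.94, and bile acid and cholesterol genes to the left, with medians of -0.34 and -0.54.

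Bile acid synthesis and transport was lower in 4 of 24 genes and higher in 1, at a median of -0.34, and 3 of the 4 were lower against all 3 control arms. Cyp7a1 (chr4:6265612-6275632), the rate-limiting enzyme of bile acid synthesis, had 197, 181 and 96.5 RPM untreated at ZT 10 and 48.0, 56.4 and 49.1 at ZT 22, against 14.1, 15.8, 18.1 and 14.5 at ZT 10 and 4.23, 4.12, 4.82 and 5.85 at ZT 22 with tunicamycin. Its mean was 10.3 times lower, it fell at both times (-3.24 and -3.31), and the difference of -3.27 ± 0.14 (limma adjusted p = 7.45e-13) was -2.39 against vehicle-injected and -2.49 against Albumin-Cre liver. Cyp8b1, which sets the share of cholic acid, had 262 to 664 RPM untreated and 105 to 344 RPM treated with some overlap (-1.13 ± 0.19), and its call was lost without untreated ZT 10 replicate 3 or untreated ZT 22 replicate 2 (-0.97 and -0.99). Nr0b2, the repressor SHP that bile acids induce through FXR, was lower as well, at 18.9, 39.9 and 30.0 RPM at ZT 10 and 28.7, 42.0 and 22.8 at ZT 22 untreated, against 6.43, 13.3, 17.2 and 13.3 at ZT 10 and 6.34, 12.2, 5.34 and 1.20 at ZT 22 treated (-1.86 ± 0.33). The uptake transporter Slc10a1 fell by less (-1.10 ± 0.11) and missed 2-fold against Albumin-Cre liver (-0.95). Abcb4, the phospholipid exporter of bile, was the member that was higher (1.34 ± 0.12), and it was not called against vehicle-injected (0.81) or Albumin-Cre liver (0.77).

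Among 20 liver transcription factors 2 rose and 2 fell (median 0.10), beside 9.34% and 4.22% of all genes tested. Foxa2, a pioneer factor of hepatocytes, had 37.6, 63.6 and 41.7 RPM at ZT 10 and 51.3, 89.8 and 67.3 at ZT 22 untreated, against 48.9, 20.5, 29.8 and 22.3 at ZT 10 and 20.3, 23.4, 20.6 and 19.9 at ZT 22 treated (-1.18 ± 0.18, limma adjusted p = 1.69e-05). The arms overlapped at ZT 10 and not at ZT 22. Its relative Foxa3 moved the other way, with 30.0 to 57.9 RPM untreated and 100.3 to 171 RPM treated (1.66 ± 0.14). Hnf4a, the main regulator of hepatocyte identity, differed by 0.63 ± 0.10, higher in every treated library and short of 2-fold.

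Cholesterol synthesis and uptake was lower in 6 of 25 genes and higher in 1, with a median of -0.54. Of the 6, 2 were lower against all 3 control arms. Msmo1, an enzyme of sterol synthesis, had 123 to 268 RPM untreated and 59.6 to 113 RPM treated (-1.04 ± 0.14). It differed by -0.58 against vehicle-injected liver and by -0.27 against Albumin-Cre liver, and was called against neither. Its call was also lost over all times of each arm (-0.92) and, at -0.93 to -0.98, without untreated ZT 10 replicate 3, untreated ZT 22 replicate 2 or tunicamycin ZT 10 replicate 3.

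Fatty acid and triglyceride synthesis was lower in 3 of 24 and higher in 2 (median -0.25), beside 4.22% lower and 9.34% higher of all genes tested. Fasn (chr11:120805958-120825166), fatty acid synthase, had 95.2, 75.6 and 242 RPM untreated and 73.6, 62.8, 64.2 and 73.3 treated at ZT 10, where the arms nearly met, and 1010, 389 and 455 RPM untreated and 58.3, 132, 94.1 and 39.2 treated at ZT 22. The untreated livers were high at ZT 22, late in the feeding period, and the treated ones were not, with log2 differences of -0.81 at ZT 10 and -2.94 at ZT 22, although the test of the change between the times missed the threshold (limma adjusted p = 0.0613). The mean difference was -1.88 ± 0.27 (limma adjusted p = 1.22e-05). Lpin1, a phosphatidate phosphatase and coactivator, rose by 2.28 ± 0.24, with 46.2, 22.4 and 22.8 RPM untreated and 146, 215, 334 and 348 treated at ZT 22. The desaturase Fads1 (-0.96 ± 0.10) and the malic enzyme Me1 (-0.90 ± 0.21) had adjusted p under 0.05 and did not reach 2-fold.

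In gluconeogenesis and amino acid catabolism 4 of 26 rose and 1 fell (median -0.24), beside 9.34% and 4.22% of all genes tested. All 4 were higher against the 3 control arms. Pck1, the rate-limiting enzyme of gluconeogenesis, had 1276, 1891 and 1332 RPM untreated and 5204, 3045, 3422 and 4915 treated at ZT 10, and 343, 438 and 1042 untreated and 3359, 2604, 2219 and 2904 treated at ZT 22 (1.90 ± 0.20, limma adjusted p = 3.38e-07). Igfbp1 (chr11:7197787-7202546), a secreted binder of insulin-like growth factors that insulin represses, had 40.4, 46.0 and 39.1 RPM at ZT 10 and 39.2, 71.3 and 41.6 at ZT 22 untreated, against 1763, 1375, 2022 and 2106 at ZT 10 and 6049, 5178, 5094 and 5099 at ZT 22 treated. Its mean was 77.5 times higher (6.08 ± 0.13) with no overlap between the arms. Sds, a serine dehydratase, was called higher as well (2.27 ± 0.41), but 88.9% of its 3′ end is shared. Of 16 tested genes of the growth hormone axis 3 were called higher, among them Igfbp1, and 1 lower (median -0.29). The lower one was Stat5a, with 4.22 to 13.2 RPM untreated and 1.56 to 3.66 RPM treated (-1.62 ± 0.22), and Igf1 did not reach 2-fold (-0.44 ± 0.11).

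Fatty acid oxidation and ketogenesis was higher in 3 of 25 with none lower, beside 9.34% and 4.22% of all genes tested. Its median of -0.12 was on the other side of zero. Besides Fgf21 these were Acot2, a mitochondrial thioesterase, with 6.83, 16 and 18.2 RPM at ZT 10 and 8.21, 20.5 and 16.9 at ZT 22 untreated, against 168, 109, 117 and 138 at ZT 10 and 324, 201, 264 and 315 at ZT 22 treated (3.77 ± 0.21), and Acads (1.38 ± 0.12), whose difference was 0.30 against vehicle-injected liver, where it was not called. Cpt2 (-0.59 ± 0.10) and Hadh (-0.78 ± 0.09) were lower short of 2-fold. Of 25 tested genes of the cytochrome P450 families 1 to 3 and their reductase Por only Cyp2b10, the classical target of the receptor CAR, was called, with 8.77, 8.14 and 4.80 RPM at ZT 10 and 33.2, 21.4 and 4.99 at ZT 22 untreated, against 81.4, 102, 95.0 and 88.2 at ZT 10 and 103, 114, 163 and 187 at ZT 22 treated (3.36 ± 0.28). The list's median was -0.21.

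The mRNAs of secreted plasma proteins moved little by fold. Of 30 plasma carriers and apolipoproteins 2 were called higher and 1 lower (median -0.07). Of 37 coagulation and complement genes 1 was called, lower (median -0.06). Every treated library lay below every untreated one in 9 of the 30 and 7 of the 37, and above in 1 and 0. Of all genes tested 7.76% lay wholly below and 11.9% wholly above. Alb, which encodes albumin, had 48340, 49150 and 50260 RPM at ZT 10 and 55440, 45760 and 54470 at ZT 22 untreated, against 28400, 33550, 33120 and 40890 at ZT 10 and 30570, 43510, 41780 and 34610 at ZT 22 with tunicamycin. Every treated library lay below every untreated one, and the difference of -0.51 ± 0.17 (limma adjusted p = 0.0196) did not reach 2-fold. Ttr, transthyretin, was called lower at 10310 to 12930 RPM untreated and 4565 to 6812 RPM treated (-1.13 ± 0.12), though not in a fit over all times of each arm. Apob was called higher at 1.03 ± 0.30, but its libraries overlap and the difference was 0.16 against vehicle-injected and -0.34 against Albumin-Cre liver. With edgeR (0.98), with DESeq2, with the deposited scaling and over all times of each arm (0.97 in these 3) it fell short of 2-fold. The call was also lost, at 0.86 to 0.97, without untreated ZT 10 replicate 2, untreated ZT 10 replicate 3, untreated ZT 22 replicate 2, untreated ZT 22 replicate 3, tunicamycin ZT 10 replicate 2, tunicamycin ZT 22 replicate 2 or tunicamycin ZT 22 replicate 3.

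Acute phase genes were higher in 5 of 24 (median 0.52), 3 of them against all 3 control arms. The metallothioneins, which bind zinc, led the list. Mt1 had 359.9, 316 and 132 RPM at ZT 10 and 153, 141 and 64.6 at ZT 22 untreated, against 1268, 983, 1039 and 1859 at ZT 10 and 3696, 3817, 5327 and 6593 at ZT 22 treated (3.86 ± 0.23, limma adjusted p = 1.22e-10). Mt2 rose by 4.63 ± 0.32 in the same libraries. Apcs, serum amyloid P, differed by 1.61 ± 0.15, almost all of it at ZT 22. Haptoglobin (Hp, 0.90 ± 0.14) and Saa4 (0.95 ± 0.18) did not reach 2-fold.

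Of 21 core clock genes 4 rose and none fell (median 0.27), and all 4 were higher against the 3 control arms. Per1 (chr11:69095108-69109965), a repressor of the clock that hormones and feeding also induce, had 14.1, 13.5 and 14.8 RPM untreated and 35.4, 36.2, 40.7 and 40.2 treated at ZT 10, and 0.616, 0.55 and 4.03 untreated and 27.2, 35.9, 34.1 and 34.8 treated at ZT 22 (2.83 ± 0.23, limma adjusted p = 1.05e-08). Rora, an activator of Bmal1, had 102, 99.9 and 90.1 RPM at ZT 10 and 142, 107 and 128 at ZT 22 untreated, against 340.1, 345, 238 and 304 at ZT 10 and 775, 661, 692 and 761 at ZT 22 treated (2.08 ± 0.10). Nfil3, a repressor in antiphase with the PAR factors, rose by 2.14 ± 0.13 and Ciart, a repressor that follows the PER rhythm, by 2.40 ± 0.21. Tef, Hlf and Per3, which peak late in the day, were lower short of 2-fold at -0.48 ± 0.10, -0.70 ± 0.11 and -0.94 ± 0.21, and each kept a higher level at ZT 10 than at ZT 22 in both arms. For Tef this was 156, 120.5, 160.5 and 165 RPM at ZT 10 and 28.6, 29.2, 28.8 and 38.4 at ZT 22 in the treated livers.

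Markers of liver cell types were checked in the same libraries. The 10 hepatocyte markers summed to 53314 to 68268 RPM with tunicamycin and 70768 to 82316 RPM untreated, and Alb alone makes up most of that sum. Kupffer cell markers summed to 247 to 376 RPM and 241 to 377 RPM, sinusoidal endothelial markers to 317 to 422 and 389 to 471, and stellate cell markers to 220.4 to 275 and 273 to 379.7. Erythroid markers summed to 1155 to 2979 RPM with tunicamycin and 1526 to 4776 RPM untreated. Cholangiocyte markers summed to 12.7 to 26.9 RPM with tunicamycin and 11.5 to 44.3 RPM untreated, and lymphocyte markers to 16.5 to 33.0 and 10.8 to 28.6. Neutrophil and monocyte markers stayed at 0.529 to 9.30 RPM with tunicamycin and 2.18 to 6.57 RPM untreated, with S100a8 at 0 to 2.40 RPM with tunicamycin and 0 to 1.47 RPM untreated. Of the tested markers of these cells 1 of 12 Kupffer genes (Marco, 1.34 ± 0.33, not called over all times of each arm) and none of 12 endothelial, 9 stellate, 3 cholangiocyte, 2 neutrophil or 2 lymphocyte genes was called by limma. Of the 10 hepatocyte markers Pck1 and Apob were called higher and Ttr lower, and of 5 erythroid genes Hba-a1, a globin, was called lower (-1.11 ± 0.24), with 86.1% of its 3′ end shared. It was not called against vehicle-injected (-0.47) or Albumin-Cre liver (-0.58), nor without untreated ZT 10 replicate 3, untreated ZT 22 replicate 1 or tunicamycin ZT 22 replicate 4 (-0.94 to -0.97). Below 2-fold, 3 endothelial markers had an adjusted p under 0.05 in the lower direction and 2 in the higher. So did 3 and 2 of the stellate markers, beside 6560 of all 12303 genes tested at any fold. None of the tested markers was at 0 in all 14 libraries. Whether the lower hepatocyte, endothelial and stellate sums or the erythroid level have a part in any result was not tested.

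The 2 times of day were compared next. At ZT 10 alone 1088 genes were higher (8.84%) and 506 lower (4.11%), and at ZT 22 1346 (10.9%) and 703 (5.71%). Tested directly, the difference changed between the times by at least 2-fold in 110 genes (0.894%), of which 72 had a more positive difference at ZT 22 (0.585%) and 38 a more negative one (0.309%). These counts depend on single libraries. They were 45 and 15 without untreated ZT 10 replicate 1, 45 and 17 without untreated ZT 10 replicate 2, and 122 and 64 without untreated ZT 22 replicate 2. Without tunicamycin ZT 22 replicate 4 they were 46 and 16, and without tunicamycin ZT 22 replicate 3 they were 46 and 21. The more negative count was 19, 20 and 24 without tunicamycin ZT 10 replicate 2, tunicamycin ZT 10 replicate 3 and tunicamycin ZT 22 replicate 1. Of the 110, 108 had the same sign against vehicle-injected liver and 108 against Albumin-Cre liver, but only 24 were called against all 3 control arms. The same tunicamycin libraries enter each of these comparisons, so agreement in sign is in part built in. Of the stress response genes, Trib3, Herpud1 and Sdf2l1 were among the 110, while Ddit3, which differed by 8.30 at ZT 10 and 8.38 at ZT 22, and Hspa5, by 3.94 and 3.77, were not called for a change.

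**Figure D3:**
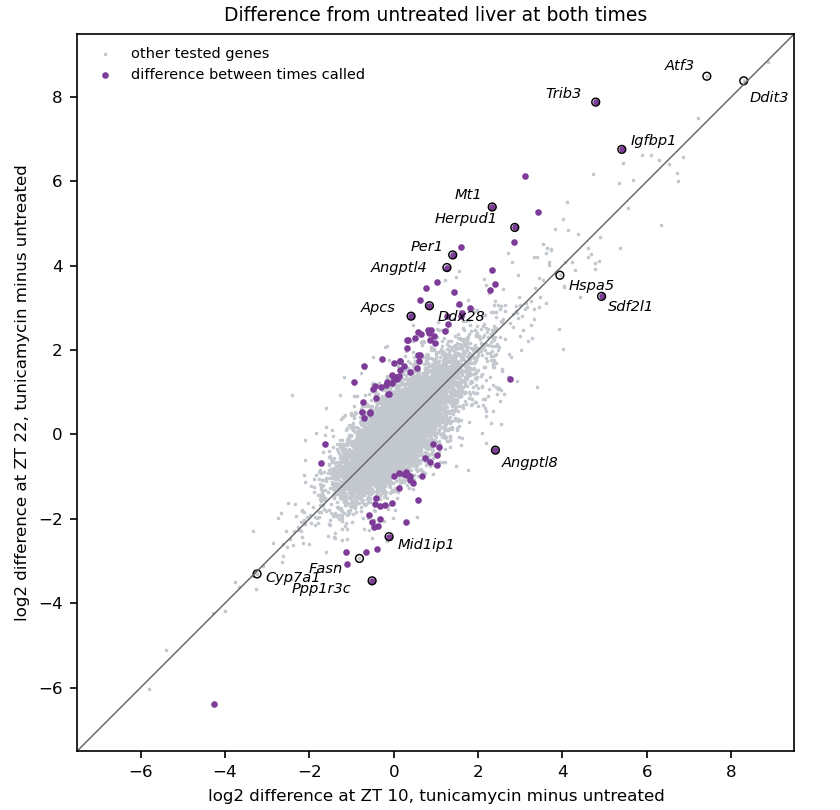
Log2 difference from untreated liver at ZT 22 against that at ZT 10 for all tested genes, with the 110 genes called for a change between the times in purple and the line of equal difference. Ddit3 (8.30 at ZT 10 and 8.38 at ZT 22) and Hspa5 (3.94 and 3.77) lie near the line, while Trib3, Herpud1, Per1 and Angptl4 lie above it and Ppp1r3c and Angptl8 below.

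In some of these genes the mean of the untreated livers differed between the 2 times by a larger fold than that of the treated ones. Trib3 and Herpud1 were lower at ZT 22 than at ZT 10 in the untreated livers and high at both times with tunicamycin, and their difference was larger at ZT 22 by 3.09 ± 0.29 (limma adjusted p = 2.77e-05) and 2.04 ± 0.22 (limma adjusted p = 6.76e-05). The treated libraries of both genes were higher at ZT 22 than at ZT 10, with no overlap. Angptl4, an inhibitor of lipoprotein lipase that fasting induces, had 83.4, 110 and 93.2 RPM untreated at ZT 10, 16.2, 26.6 and 7.48 untreated at ZT 22, and 208, 224, 234 and 248 at ZT 10 and 226, 239.8, 235 and 252 at ZT 22 treated. The change of 2.696 ± 0.35 was 2.03 against vehicle-injected and 0.80 against Albumin-Cre liver, where it was not called. Per1 changed by 2.86 ± 0.47 (limma adjusted p = 0.00359), and Gne, the first enzyme of sialic acid synthesis, by 1.38 ± 0.17, both with treated levels that overlapped between the 2 times. Against vehicle-injected liver the change in Gne was 0.97 and against Albumin-Cre liver 0.78, and it was called against neither.

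Mid1ip1, an activator of acetyl-CoA carboxylase, showed the same pattern in the other direction, with 19.5, 14.7 and 27.5 RPM untreated and 19.0, 26.5, 16.5 and 13.8 treated at ZT 10, and 74.9, 64.1 and 75.2 untreated and 12.0, 9.72, 15.5 and 15.2 treated at ZT 22. The untreated livers were higher at ZT 22 and the treated ones were not, and the change was -2.31 ± 0.32 (limma adjusted p = 0.000607), called against all 3 control arms. Ppp1r3c, a glycogen-targeting subunit of protein phosphatase 1, named after its values were seen, had 40.3, 76.1 and 26.8 RPM at ZT 10 and 251, 264 and 211 at ZT 22 untreated, against 19.9, 14.4, 55.2 and 53.2 at ZT 10 and 19.9, 19.9, 29.2 and 17.9 at ZT 22 treated (-2.96 ± 0.54). Angptl8, a feeding-induced relative of Angptl4 named in the same way, had 3.12, 2.62 and 3.95 RPM at ZT 10 and 15.6, 14.3 and 37.8 at ZT 22 untreated, against 25.8, 18.8, 16.6 and 16.6 at ZT 10 and 15.9, 23.9, 11.7 and 13.3 at ZT 22 treated. Its difference was 2.41 at ZT 10 and -0.37 at ZT 22.

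In Ddx28 and Apcs the treated livers differed between the times by the larger fold. Ddx28, a mitochondrial RNA helicase, had 17.5, 20.1 and 14.2 RPM at ZT 10 and 14.8, 18.5 and 12.8 at ZT 22 untreated, against 35.8, 31.5, 29.6 and 28.4 at ZT 10 and 142, 117, 118 and 144 at ZT 22 treated, and its difference was larger at ZT 22 by 2.20 ± 0.22 (limma adjusted p = 2.77e-05). Apcs had 35.1, 33.9 and 47.5 RPM at ZT 10 and 67.1, 37.9 and 56.4 at ZT 22 untreated, 63.1, 67.4, 45.2 and 35.8 treated at ZT 10 and 395, 321, 356 and 410.2 treated at ZT 22, so that the arms overlapped at ZT 10 and lay far apart at ZT 22 (2.39 ± 0.30, limma adjusted p = 0.000397). Slc20a1, a phosphate transporter, rose at both times and more at ZT 22, with 275, 311, 288 and 233 RPM at ZT 10 and 418, 406, 448 and 436 at ZT 22 against 34.6, 37.4 and 40.5 at ZT 10 and 19.7, 16.3 and 17.3 at ZT 22 untreated. Its level was thus higher at ZT 22 in the treated livers and lower at ZT 22 in the untreated ones. Mt1 differed from untreated by 2.34 at ZT 10 and by 5.39 at ZT 22, with higher treated levels and lower mean untreated levels at ZT 22. The ER chaperone Sdf2l1, named after its values were seen, went the other way, with a difference of 4.93 at ZT 10 and 3.27 at ZT 22. This change was lost in 10 of the 14 fits that left out 1 library, and over all 14 it lay between -1.96 and -1.18. It was not called against Albumin-Cre liver (-1.35).

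**Figure D4:**
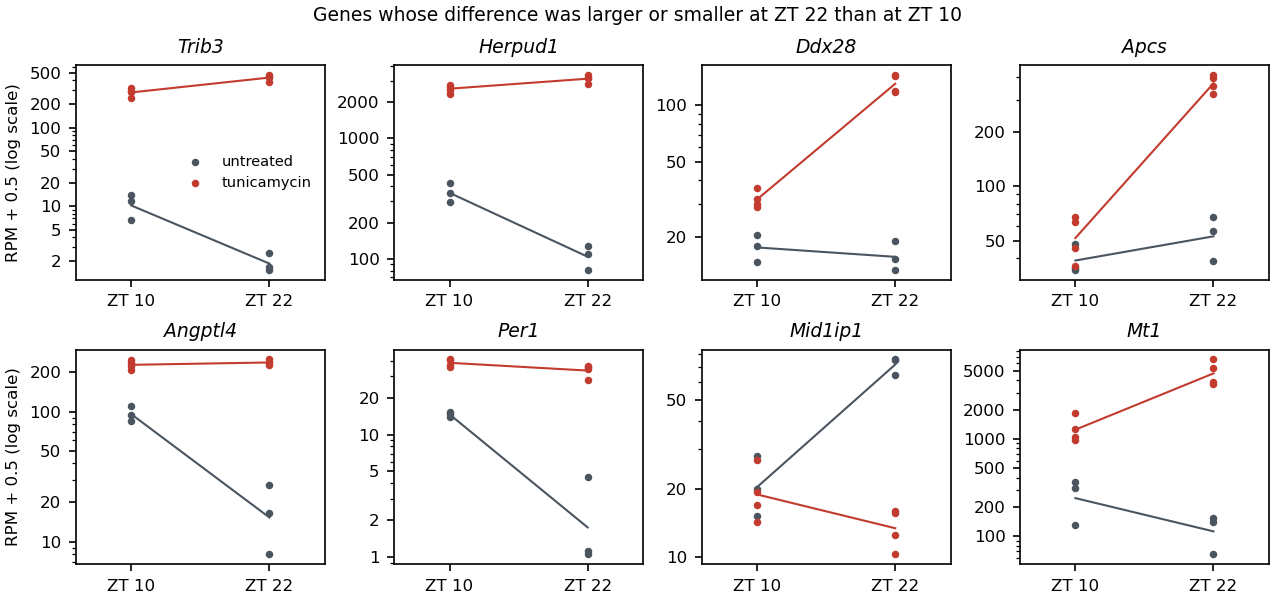
RPM + 0.5 on a log axis at ZT 10 and ZT 22 for 8 genes whose difference changed between the times, with untreated libraries in grey, tunicamycin libraries in red and lines joining the means on the log scale. Trib3, Herpud1, Angptl4 and Per1 are lower at ZT 22 in the untreated livers, Mid1ip1 is higher in them at ZT 22, and Ddx28, Apcs and Mt1 are higher at ZT 22 in the treated livers.

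Controls within the table without tunicamycin give the scale of differences that arise with no tunicamycin. Vehicle-injected against untreated wild-type liver at the same times gave 113 called genes (0.915%), 48 higher (0.389%) and 65 lower (0.526%), 5 of them by at least 4-fold. Untreated Albumin-Cre against untreated wild-type liver gave 147 (1.19%), 114 higher (0.921%) and 33 lower (0.267%), 10 by at least 4-fold. Neither comparison crosses the tables. In the 14 libraries 1463 genes (11.9%) had all treated libraries above all untreated ones and 955 (7.76%) all below.

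Some of the most extreme differences separated the tables in every library examined. Of the genes tested 12 were under 2 RPM in each of the 72 libraries read from the table without tunicamycin and over 5 RPM in each of the 32 read from the tunicamycin table, among them Arf4, Slc7a1, Ehd1, Cdk2ap2, Rnf181 and Marchf5. Sf1, Mat2a and Slc25a32, which are also among the 20 highest differences, came close to this. They had 0.287 to 2.93, 0 to 2.46 and 0 to 2.30 RPM in the first table. In the second they had 55.8 to 150.3, 41.8 to 340 and 33.9 to 67.7 RPM. The stress genes Atf3 and Fgf21 came closer, each with 0 to 2.06 RPM in the first table. In the second they had 45.2 to 429.9 and 34.95 to 272.4 RPM. Chac1, Psat1, Derl3 and Nupr1 reached at most 4.24, 1.22, 1.49 and 2.06 RPM in the first table. Their lowest levels in the second were 54.8, 4.76, 3.21 and 4.28 RPM. The differences of these stress genes cannot be told apart from one between the tables. Gapdh (chr6:125161852-125166467), a glycolytic enzyme often used as a reference gene, showed the converse, with 5.10 to 86.6 RPM in the first and 0 to 0.837 RPM in the second, and 87.5% of its 3′ end is shared with other loci. Gstp-ps, a pseudogene named after its values were seen, had the highest difference of all, 1.24 RPM untreated and 796 RPM treated, with 86.1% shared. Ddit3 spanned 2.63 to 22.1 RPM in the first table and 465 to 2096 RPM in the second, and Hspa5 427 to 1495 and 5079.6 to 12846. Both genes had reads in every library of both tables, but their ranges in the 2 tables do not overlap. Treatment and table cannot be told apart for them either.

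Genes that share at least 10% of their 3′ end with another locus made up 2509 of those tested, and 236 of them were called higher and 180 lower (7.17% lower). Of the 9579 with less sharing 889 were higher and 325 lower (3.39%). The shares called higher were 9.41% and 9.28%. Of the 1294 genes that share at least 50%, 152 were called higher (11.7%) and 89 lower (6.88%). Low calls were therefore more frequent where reads could be assigned in more than 1 way, and high calls were so at 50% sharing or more. How each table treated such reads is not given in the sources used here.

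**Figure D5:**
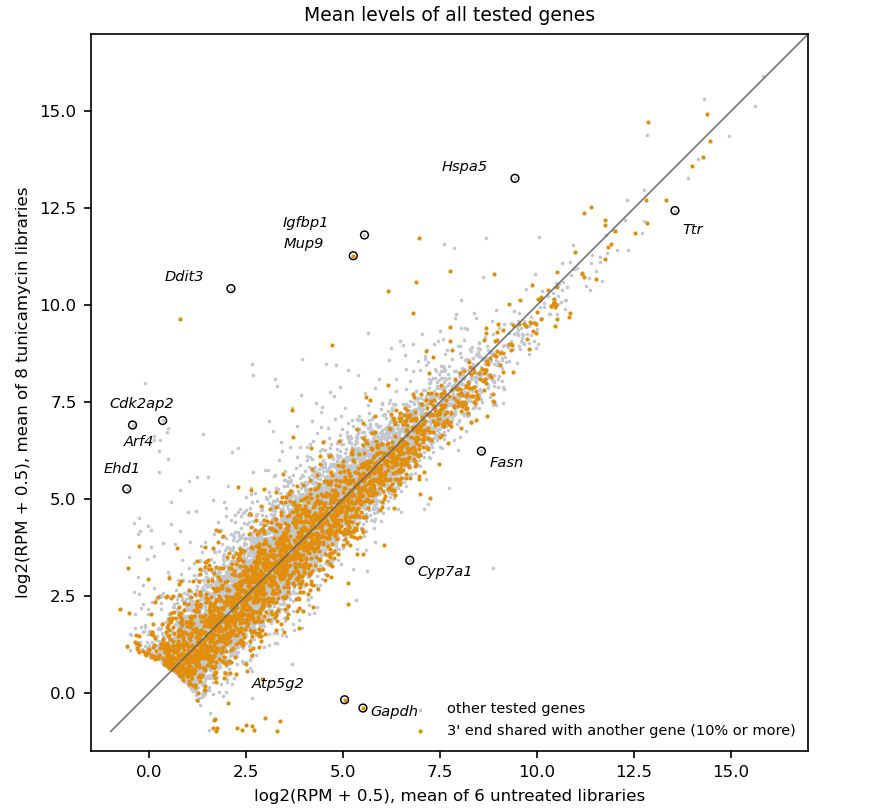
Mean level of each tested gene in the 8 tunicamycin libraries against the 6 untreated ones, as log2(RPM + 0.5), with genes that share at least 10% of their 3′ end in orange. Ddit3, Igfbp1 and Hspa5 lie far above the line and Cyp7a1 and Fasn below it, while Gapdh and Atp5g2, which share their ends, lie at the bottom and Arf4, Cdk2ap2 and Ehd1 at the left edge.

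The difference was last set against that under arrhythmic feeding, where wild-type mice without a daily feeding rhythm were sampled at the same times with and without tunicamycin. With libraries of all 4 arms in 1 fit, the log2 difference from untreated differed between the feeding schedules in 158 of 12316 genes (1.28%), 81 of them more positive under night feeding (0.658%) and 77 more negative (0.625%). Of these 106 were called between the untreated arms, none between the tunicamycin arms and 52 in neither. Between the tunicamycin arms no gene at all was called by limma, so none of the 158 could be. At any fold 6 genes had an adjusted p under 0.05 there by limma and 792 an unadjusted p under 0.05. In the same comparison 1 was called by edgeR and 8 by DESeq2, while 262 were called between the untreated arms. Mt1 had a mean of 196 RPM untreated under night feeding and 30.3 under arrhythmic feeding, and 3101 and 2571 RPM with tunicamycin, so the differences of 3.86 and 6.70 were unequal by -2.84 ± 0.52 (limma adjusted p = 0.00262). Chac1 showed the same, at 2.12 and 0.608 RPM untreated and 103 and 122 RPM treated (-1.35 ± 0.28, limma adjusted p = 0.00534). Ddit3 differed from untreated by 8.34 under night and 7.48 under arrhythmic feeding, Hspa5 by 3.86 and 3.81, and Cyp7a1 by -3.27 and -3.26, and none of these 3 pairs was called as unequal.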

How the data were processed

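Liver RNA was sequenced with a 3′ end library kit, per the labels' protocols. The submitters' processing notes name STAR 2.7.3a, SAMtools and the genome build mm10 (GRCm38.p6). Which program counted the reads is in none of the sources used here. The authors deposited 2 tables of a signal per gene symbol, whose values behave as gene counts divided by a factor of each library. In every library 100% of the deposited values were whole multiples of 1 step within 0.01 read, so read counts were recovered. The tables were joined on the 15900 symbols with values in both and rescaled together by TMM (edgeR 4.0.16). Genes averaging 1 RPM or more over the libraries of a fit were tested with limma 3.58.1 in R 4.3.3, with a trend, on log2(RPM + 0.5) with 1 mean per group, and p was adjusted by the Benjamini-Hochberg method over all genes of a fit. The limma step was tested on simulated data. Since the values are scaled counts and not raw ones, edgeR's quasi-likelihood test and DESeq2 1.42.0 on the recovered reads were alternatives, beside other scalings, pseudocounts, filters, control arms, all times of each arm, a replicate block and leaving out each library. The comparison, its 41 gene lists and its tests were chosen with earlier results of these data known. Named genes are the members of the lists for the drug target, the ER sensors and the response's transcription factors, up to 8 genes of every other list by smallest adjusted p, the 20 highest and 20 lowest differences at 5 RPM or more, and the 10 smallest p in the tests by time and by feeding. Unnamed gene models were passed over. The labels state that replicates are biological; equal replicate numbers were tested for pairing and did not pair the libraries. A 3′ end is the last 400 bases of a transcript, called shared where its 50-base runs recur in other genes of GENCODE M21 on either strand.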

Additional observations from a re-analysis of the deposited data

Results flagged for a closer look

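Of the 110 genes whose difference from untreated liver changed between ZT 10 and ZT 22 by limma's test of the change itself, 20 are among the 155 named genes examined here. The log2 difference was more positive at ZT 22 for Trib3 (3.09), Mt1 (3.06), Mt2 (3.02), Per1 (2.86), Angptl4 (2.696), Apcs (2.39), Ddx28 (2.20), Herpud1 (2.04), Ciart (1.96), Slc20a1 (1.69), Gne (1.38), Fnip1 (1.38), Igfbp1 (1.35), the reductase Por (1.32) and Gnl3 (1.24). It was more negative there for Ppp1r3c (-2.96), Angptl8 (-2.78), Mid1ip1 (-2.31), Tuba1c (-1.77) and Sdf2l1 (-1.65). The changes in Trib3, Mt1, Per1, Apcs, Ddx28, Herpud1, Slc20a1, Ppp1r3c, Angptl8 and Mid1ip1 were called in every fit that left out 1 library and against both other control arms. The call for Mt2 was lost in 7 of the 14 fits that left out 1 library and that for Ciart in 8, and over all 14 the values lay between 2.60 and 3.78 for Mt2 and between 1.70 and 2.31 for Ciart. Ciart, Gne, Igfbp1, Por and Gnl3 were called against neither vehicle-injected nor Albumin-Cre liver. Angptl4, Fnip1, Tuba1c and Sdf2l1 were not called against Albumin-Cre liver, and Mt2 was not called against vehicle-injected liver.

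By the same kind of test, 158 genes had unequal differences under night and arrhythmic feeding, and 9 of them are among the 155 named genes. Night-fed minus arrhythmic values were -3.33 for Mt2, -2.84 for Mt1, -1.74 for Gapdh, -1.59 for Atp5g2, -1.45 for Sdcbp, -1.35 for Chac1 and -1.22 for Lamtor3, against 1.41 for Fkbp2 and 1.28 for Apob. Of these, Gapdh and Atp5g2 share most of their 3′ ends with other loci.

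A single library stood apart from the other 3 tunicamycin libraries of its time in 16 of 310 groups examined, where chance alone sets about 1 in 20 apart. Among stress genes, Chac1 was low at 53.9 RPM in ZT 10 replicate 4 (the nearest other library was at 108) and high at 119.1 RPM in ZT 22 replicate 4 (102). Ern1 reached 53.5 RPM in ZT 10 replicate 1, Nupr1 lay at 85.7 RPM in ZT 22 replicate 4 and Ppp1r15a at 48.4 RPM in ZT 10 replicate 4. Of the ER degradation genes, Edem3 was low at 42.6 RPM in ZT 22 replicate 3 and Ube2j1 at 53.2 RPM in ZT 10 replicate 2, and the decay substrate Hgsnat was high at 14.98 RPM in ZT 22 replicate 2. Ttr, a plasma carrier protein gene, was high at 6812 RPM in ZT 10 replicate 4. Igfbp1 was highest at 6049 RPM in ZT 22 replicate 1 and Foxa3 lowest at 107 RPM in ZT 22 replicate 2. Ciart stood at 60.6 RPM in ZT 10 replicate 4, Tef at 38.4 RPM in ZT 22 replicate 4 and Hsp90aa1 at 153 RPM in ZT 10 replicate 1. Sf1 stood at 115 RPM and Fnip1 at 65.9 RPM in ZT 10 replicate 1. None of the 8 tunicamycin libraries was set apart in more than 4 of these genes.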

How the results depend on the processing

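The counts of genes called higher over both times, at ZT 10 and at ZT 22 stayed within 1.5 times the reported ones in every alternative except the 4-fold rule, and the counts called lower moved more. With at least a 4-fold difference 221 genes were higher and 42 lower over both times, 217 and 48 at ZT 10, 286 and 72 at ZT 22, 15 and 8 changed between the times, 10 differed between the untreated arms and 7 between the feeding schedules. With a pseudocount of 2, 278 genes were lower over both times, 286 at ZT 10 and 391 at ZT 22, 69 differed between untreated Albumin-Cre and wild-type liver and 73 between the feeding schedules. With a mean of at least 5 RPM these were 317, 308 and 404 lower and 89 between the untreated arms, fewer genes being tested. Against vehicle-injected liver 343 were lower over both times and 334 at ZT 10. Against Albumin-Cre liver 301 were lower at ZT 10, and 33 and 23 changed between the times. DESeq2 gave 122 and 96 changes between the times. Counting only genes with under 10% of the 3′ end shared, chosen after seeing the data, left 325 lower over both times and 290 at ZT 10, 78 between the untreated arms and 82 between the feeding schedules. Apob reversed to -0.34 against Albumin-Cre liver.

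Leaving out 1 library at a time gave 1116 to 1175 genes higher and 476 to 565 lower over both times, 1040 to 1110 and 440 to 580 at ZT 10, and 1305 to 1415 and 675 to 785 at ZT 22. Changes between the times ranged from 45 to 122 upward and 15 to 64 downward. Between the untreated arms the range was 79 (without Albumin-Cre ZT 22 replicate 3) to 181, and between the feeding schedules 106 to 204. The tunicamycin and untreated libraries of the same number and time had a median residual correlation of -0.11 (-0.20 to 0.09 over 6 pairs), so the numbers were not taken as pairs. With the replicate block 1126 genes were higher and 521 lower over both times, 1076 and 509 at ZT 10, 1349 and 714 at ZT 22, 63 and 25 changed between the times, 145 differed between the untreated arms and 162 between the feeding schedules. Of the named genes, Bloc1s1 (-0.997) and Hba-a1 (-0.91) lost their call over both times with the block. The median log2 difference of all genes was 0.00 with TMM, -0.02 with DESeq2 size factors or total reads and -0.05 with the deposited scaling. Genes near 1 RPM rest on few reads in each library, and no gene listed at 0 was read as absent.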

Other observations

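Besides the bile acid enzymes, the 20 lowest differences held several genes of hepatocyte metabolism and signaling that no list covered. Ptprf, a receptor tyrosine phosphatase that acts on the insulin receptor, had 214, 209 and 223 RPM untreated at ZT 10 and 176, 249 and 189 at ZT 22, against 33.6, 43.1, 34.5 and 46.3 with tunicamycin at ZT 10 and 36.5, 50.7, 40.4 and 22.5 at ZT 22. It fell by 2.46 ± 0.14 on the log2 scale (limma adjusted p = 6.33e-11), and the difference was -2.34 against vehicle-injected and -2.08 against Albumin-Cre liver. The arms did not overlap at either time, where the differences were -2.45 at ZT 10 and -2.48 at ZT 22. The carboxylesterase Ces1g, which hydrolyses lipids and drugs, lay at 76.0 to 164 RPM untreated and 15.4 to 39.1 RPM treated (-2.35 ± 0.16), and its relative Ces1b, with 30.6% of its 3′ end shared, differed by -2.30 ± 0.17. Acot3, a peroxisomal thioesterase, had 8.79 to 99.6 RPM untreated and 4.23 to 16.8 RPM treated (-2.27 ± 0.26), the opposite direction to its mitochondrial relative Acot2 (3.77 ± 0.21). Arrdc3, an arrestin-domain protein, fell from means of 39.8 to 4.73 RPM (-2.81 ± 0.33), and the lipid transporter Abca2 from 18.3 to 3.64 RPM (-2.25 ± 0.21). Each of these 6 genes was lower against all 3 control arms.

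Of 19 tested lipid droplet and lipoprotein assembly genes, at a median of -0.10, only Fitm1, a droplet-forming protein of the ER, was called, at 21.1 to 67.3 RPM untreated and 7.89 to 16.2 RPM treated (-1.59 ± 0.17), and against vehicle-injected liver its difference of -0.65 was not called. The droplet coat gene Plin5 (0.95 ± 0.12) and the lipase inhibitor G0s2 (0.80 ± 0.13) lay above untreated wild-type liver without a call, with G0s2 at 2.06 against vehicle-injected and 2.67 against Albumin-Cre liver. Fnip1, a folliculin partner of the nutrient-sensing pathway at the lysosome, was among the 10 smallest p for a change between the times. It had 67.9, 59.2 and 63.8 RPM untreated and 65.9, 72.6, 72.8 and 73.2 treated at ZT 10, and 26.7, 30.6 and 23.2 untreated and 78.3, 70.3, 76.7 and 88.8 treated at ZT 22. The change was 1.38 ± 0.18 (limma adjusted p = 0.00047), and against Albumin-Cre liver it was 0.93 and not called. Tuba1c, an alpha-tubulin gene with 58.3% of its 3′ end shared, differed by 1.04 at ZT 10 and -0.73 at ZT 22.

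Among the 10 smallest p for a change with the feeding schedule, Sdcbp, an adaptor of exosome formation, differed from untreated by -0.91 under night feeding and 0.54 under arrhythmic feeding. Its mean was 82.4 RPM untreated and 43.1 treated under night feeding, and 30.8 and 43.6 RPM under arrhythmic feeding. Lamtor3, a subunit of the lysosomal scaffold of mTORC1, was at 0.11 and 1.34 (limma adjusted p of the change = 0.000509), with 16.7% of its 3′ end shared. Mup9, a major urinary protein gene with 91.6% of its 3′ end shared, was at 10.4 to 81.9 RPM untreated and 1045 to 3620 RPM treated. Atp5g2, a subunit of ATP synthase with 98.04% shared, had a mean of 32.3 RPM untreated and 0.381 RPM treated. How these shared reads were assigned in each table is not given in the sources used here.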
